A study of Mus musculus with 12 samples.

Results

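The genes described here are 10 of the antioxidant response that the transcription factor NRF2 controls, of 19937 genes measured on the array. They were taken by symbol, as a list drawn up with earlier results of these data known: Nfe2l2, Keap1, Nqo1, Gpx2, Hmox1, Gclc, Gclm, Txnrd1, Srxn1 and Slc7a11. Each of the 10 had exactly 1 array row. All values are RMA intensities, a summary of an array row's probes after background subtraction and normalization, given as log2.

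The study profiled mouse liver material (C57Bl6) with 1 Affymetrix MoGene 1.0 ST array for each of 12 libraries, 3 in each of 4 groups. Yap-on organoids came from livers in which Yap had been on for 3 weeks and were then kept for 2 weeks in culture with doxycycline, so that Yap stayed on. Yap-off organoids had the same 3 weeks of Yap in the liver, followed by 2 weeks of culture without doxycycline. Wild-type organoids were also grown for 2 weeks, and the uninduced hepatocytes were YFP-positive liver cells sorted by FACS. Yap is a coactivator of transcription that the Hippo pathway restrains, and organoids are epithelial structures grown from tissue cells. The labels do not name the promoter of the Yap transgene, the driver of YFP or whether animals were pooled. They do not say that replicates came from separate animals, so the p-values reflect variation among the libraries at hand, and this variation may be technical.

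NRF2, encoded by Nfe2l2, is held low by KEAP1, an adaptor that hands it to the CUL3 ubiquitin ligase for destruction. When oxidants or electrophiles modify KEAP1, NRF2 builds up, pairs with a small MAF protein and binds antioxidant response elements in its target genes. Its activity is therefore set largely at the protein level, and target transcripts are commonly used to read it. The targets described here make and use glutathione (Slc7a11, Gclc, Gclm, Gpx2), run the thioredoxin system (Txnrd1, Srxn1), reduce quinones (Nqo1) or break down heme (Hmox1).

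Upstream sequences are shown for Gpx2 and Nqo1, the 2 members called between Yap-on and Yap-off organoids, and for 2 further genes of glutathione supply that lay on opposite sides there (Gclm and Slc7a11). They were read from RefSeq's table of gene starts (GRCm38.p6), which held 8 of the 10 members and not Hmox1 or Gclc. Each runs 5′ to 3′ on the gene's strand, and capitals mark matches to TGANNNNGC on either strand. That is a loose form of the core of the antioxidant response element, TGACNNNGC, so every match to the core is also a match to the loose form.

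The Gpx2 sequence is the 250 bases before the start, chr12:76795555-76795804 on the minus strand, with 1 loose match on the other strand, 202 to 194 bases before the start.
Gpx2: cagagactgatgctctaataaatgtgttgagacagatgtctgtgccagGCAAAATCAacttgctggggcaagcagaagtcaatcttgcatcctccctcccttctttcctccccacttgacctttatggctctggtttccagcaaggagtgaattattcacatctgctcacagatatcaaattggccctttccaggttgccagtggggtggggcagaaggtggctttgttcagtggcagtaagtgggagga
The Nqo1 sequence is chr8:107403206-107403455 on the minus strand and has no match to either form.
Nqo1: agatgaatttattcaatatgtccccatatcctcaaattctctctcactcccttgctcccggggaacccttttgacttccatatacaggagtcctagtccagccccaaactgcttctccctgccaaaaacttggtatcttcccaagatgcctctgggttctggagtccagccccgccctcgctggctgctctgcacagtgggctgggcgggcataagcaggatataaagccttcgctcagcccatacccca
The Gclm sequence is chr3:122245307-122245486 on the plus strand, cut to 180 bases because the rest of the window lies within the annotated gene span. It has 1 match to the core on the other strand, 134 to 126 bases before the start that the table uses.
Gclm: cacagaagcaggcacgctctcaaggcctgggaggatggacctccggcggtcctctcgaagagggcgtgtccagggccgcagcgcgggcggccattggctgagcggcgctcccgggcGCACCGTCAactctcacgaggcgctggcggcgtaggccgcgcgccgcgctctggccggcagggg
The Slc7a11 sequence is chr3:50443614-50443863 on the minus strand and lies inside the annotated span of the gene. It has 2 loose matches on the other strand, 97 to 89 and 45 to 37 bases before the start.
Slc7a11: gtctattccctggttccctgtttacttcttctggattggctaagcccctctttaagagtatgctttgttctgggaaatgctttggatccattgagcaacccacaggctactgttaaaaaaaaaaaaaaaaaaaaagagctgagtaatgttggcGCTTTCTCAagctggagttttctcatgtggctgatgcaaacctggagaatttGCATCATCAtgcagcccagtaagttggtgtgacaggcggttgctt

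Over all 32851 windows of 250 bases before a start in that table, 10.2% held the core and 35.2% the loose form. The 8 members in the table had 10 such windows, of which 3 held the core and 8 the loose form. By gene, Nfe2l2, Gclm and Txnrd1 (at 1 of its 3 starts) held the core, and 7 of 8, all but Nqo1, held the loose form. A match describes letters in this window only and does not show binding.

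Wild-type organoid and hepatocyte libraries did not group by label, and this touches every comparison with them. Across all genes, the correlation between libraries of a group was 0.992 to 0.995 for Yap-on and 0.975 to 0.983 for Yap-off organoids, but 0.800 to 0.970 for wild-type organoids and 0.822 to 0.989 for hepatocytes. The median of 10 macrophage markers was 10.39 and 11.02 (log2 intensity) in wild-type organoid libraries 1 and 3 and 11.29 in that labelled hepatocyte 2. It lay between 3.05 and 4.03 in all other libraries, and the array medians of all rows were 3.76 to 3.96. All 10 of these markers exceeded the array median in those 3 libraries. The endothelial list divided the same way (median 7.74 to 10.04 in these 3 libraries, 3.18 to 3.63 elsewhere). Krt19, the keratin of bile ducts, was at 9.28 in the library labelled wild-type organoid 2, against 10.21 and 9.82 in those labelled hepatocyte 1 and 3. The labels are kept throughout, and results are also given without the libraries labelled wild-type organoid 2 and hepatocyte 2, a choice made with the data known that does not tell which labels are wrong.

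The Yap-on and Yap-off libraries were close within their groups, and their labels were set against marker genes, which did not all run the way of the labels. Of 10 hepatocyte markers, 7 were called lower and none higher in Yap-on organoids, beside 4.36% and 7.09% of all genes. In each Yap-on library 6 of these markers lay below the array median. Of 7 measured biliary markers, 4 were called higher and none lower. These calls are from limma on 12 arrays with adjusted p under 0.05. Yap1 itself averaged 7.38 with Yap on and 7.15 with Yap off, which did not pass (difference 0.23, SE 0.56, adjusted p = 0.825), and the labels do not say whether the array row detects the transgene. Ankrd1, a classical target of Yap, ran against the labels, at 7.68, 7.95 and 8.57 in the Yap-on libraries and 9.46, 9.13 and 9.39 in the Yap-off libraries. The groups did not overlap, and the difference of -1.26 did not pass on 12 arrays (SE 2.05, adjusted p = 0.73, limma). That wide SE goes with the spread of Ankrd1 outside these groups. Its SD was 0.46 in Yap-on, 0.17 in Yap-off and 3.90 in wild-type organoids and 3.91 in hepatocytes. Xist was at 3.14 to 3.20 in the Yap-on and at 8.49 to 9.20 in the Yap-off libraries. Every difference between these groups therefore ran along with one in sex-linked expression. Its part cannot be told apart from that of Yap in this comparison and was not tested. Xist was at 3.14 to 3.30 in wild-type organoids and at 8.82, 3.00 and 9.0 in hepatocytes, and Eif2s3y, on the Y chromosome, ran the reverse way. Yap-off organoids therefore differed in sex-linked expression from wild-type organoids, and Yap-on organoids from hepatocytes 1 and 3, while the library labelled hepatocyte 2 stood apart within its group. In bulk RNA such as this, fewer cells of a type and less RNA per cell cannot be told apart.

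Keeping Yap on in culture went with a large rise of 1 member and a fall of another. The transcripts of NRF2 and its inhibitor were higher by 0.51 and 0.24 on the log2 scale, neither of them called on 12 arrays. Gpx2 was about 47-fold higher in Yap-on than in Yap-off organoids, and Nqo1 was 2.85-fold lower. Gclc and Gclm, the 2 subunits that make glutathione's precursor, stood higher with Yap on, and Slc7a11, which imports its cysteine source, stood lower. Hmox1 and Txnrd1 overlapped between the groups. In the fit on all 12 arrays (limma, adjusted p under 0.05 over all genes), 1 of the 10 members was called higher, against 7.09% of all genes, and 1 lower, against 4.36%.

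That fit takes 1 spread per gene from all 4 groups, and so carries the disagreement within the wild-type organoid and hepatocyte labels into the test of Yap-on against Yap-off. On the 6 arrays compared, 4 members were called higher (Nfe2l2, Gpx2, Gclc and Gclm) and 2 lower (Nqo1 and Slc7a11), against 19.1% and 12% of all genes. Without the libraries labelled wild-type organoid 2 and hepatocyte 2, the same 4 were called higher and 3 lower, Srxn1 being the third, against 18.9% and 10.8% of all genes. The groups did not overlap for 5 members that were higher with Yap on and 3 that were lower, beside 24.6% and 28.9% of all genes. The median log2 difference of the 10 was 0.11, against -0.08 over all genes.

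**Figure D1:**
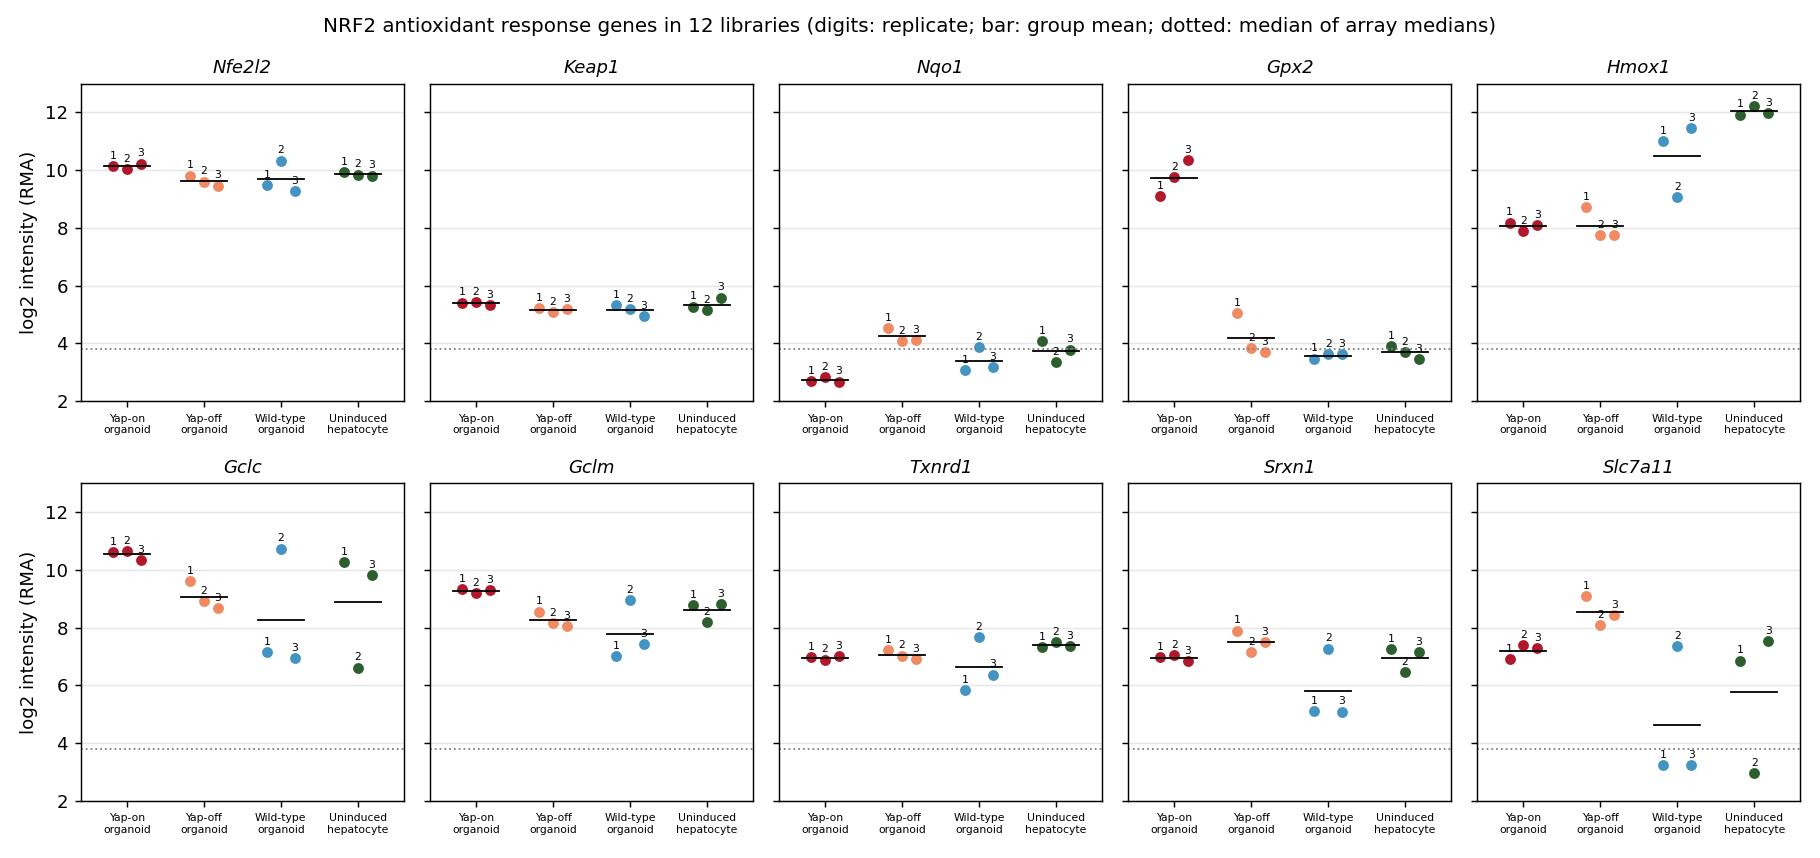
Log2 intensity of each of the 10 genes in the 12 libraries, with Yap-on organoids at the left, followed by Yap-off organoids, wild-type organoids and uninduced hepatocytes. Each point is 1 library with its replicate number, bars are group means and the dotted line is the median of the array medians. Gpx2 stood between 9.11 and 10.35 in the Yap-on libraries and at or below 5.04 in all others, Hmox1 was above 9 in the wild-type organoid and hepatocyte libraries and below 9 in both Yap groups, and Gclc and Slc7a11 divided the wild-type organoid and hepatocyte libraries within their labels.

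Among the regulators, Nfe2l2 stood at 10.13, 10.04 and 10.23 log2 intensity in the Yap-on libraries, against 9.81, 9.60 and 9.47 in the Yap-off libraries. All Yap-on values lay above all Yap-off values, by a log2 difference of 0.51 (SE 0.23, adjusted p = 0.20 with limma on 12 arrays, 0.020 on the 6 arrays). Keap1 was at 5.41, 5.43 and 5.33 in the Yap-on and at 5.21, 5.08 and 5.17 in the Yap-off libraries. This difference of 0.24 was called in neither fit (adjusted p = 0.30 and 0.089), although the groups did not overlap. Over all 12 libraries Nfe2l2 spanned 1.05 and Keap1 0.63 on the log2 scale, the narrowest ranges of the 10 members.

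Gpx2 is a glutathione peroxidase of gastrointestinal epithelium that reduces hydrogen peroxide and lipid peroxides. It stood at 9.11, 9.75 and 10.35 log2 intensity in the Yap-on libraries, against 5.04, 3.83 and 3.68 in the Yap-off libraries. The gap between the groups was several times their spread, with a log2 difference of 5.55 (SE 0.38, adjusted p = 1.0e-05, limma), called in all 14 alternative fits with values from 5.25 to 5.98. The 2 lower Yap-off values were near the array medians, and 45.2% to 65.0% of an array's rows lay below Gpx2 in these 3 libraries, so that the array's background limits the size of the fold. The library labelled Yap-off 1 had the highest Gpx2 outside the Yap-on group.

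Nqo1, which reduces quinones, is a target commonly used as a readout of NRF2. It was at 2.69, 2.82 and 2.67 log2 intensity in the Yap-on libraries and at 4.54, 4.08 and 4.10 in the Yap-off libraries. Every Yap-on value lay below every Yap-off value, with a log2 difference of -1.51 (SE 0.25, adjusted p = 0.0036, limma), called in all 14 alternative fits. The level was low throughout: 16.6% to 23.4% of an array's rows lay below Nqo1 in the Yap-on libraries and 53.1% to 59.7% in the Yap-off libraries. Gpx2 and Nqo1 thus moved in opposite directions between the same organoids.

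Glutathione is built from cysteine, which Slc7a11 brings in as cystine, through a first step carried out by glutamate-cysteine ligase with its catalytic (Gclc) and modifier (Gclm) subunits. Gclc was at 10.63, 10.65 and 10.34 log2 intensity in the Yap-on libraries, against 9.62, 8.91 and 8.68 in the Yap-off libraries. Gclm was at 9.33, 9.20 and 9.31 in the Yap-on and at 8.55, 8.17 and 8.04 in the Yap-off libraries. Neither gene overlapped between the groups. Their log2 differences of 1.47 (SE 1.10) and 1.03 (SE 0.42) did not pass on 12 arrays (adjusted p = 0.42 and 0.15, limma), and both passed on the 6 arrays (SE 0.24 and 0.15, adjusted p = 0.0045 and 0.0025).

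Slc7a11 ran the other way. It was at 6.91, 7.40 and 7.28 log2 intensity in the Yap-on libraries, against 9.10, 8.09 and 8.44 in the Yap-off libraries, so that all Yap-on values lay below all Yap-off values. The log2 difference of -1.35 (SE 1.29) did not pass on 12 arrays (adjusted p = 0.53, limma) and passed on the 6 arrays (SE 0.27, adjusted p = 0.0096). The wide SE on 12 arrays goes with the spread of Slc7a11, whose SD was 0.25 in Yap-on, 0.52 in Yap-off and 2.38 in wild-type organoids and 2.47 in hepatocytes.

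Srxn1, the sulfiredoxin that restores over-oxidized peroxiredoxins, was at 6.97, 7.04 and 6.84 log2 intensity in the Yap-on libraries and at 7.90, 7.15 and 7.50 in the Yap-off libraries. The groups did not overlap, but the difference of -0.56 (SE 0.52) passed neither on 12 arrays nor on 6 (adjusted p = 0.51 and 0.064, limma). It passed only without the libraries labelled wild-type organoid 2 and hepatocyte 2 (adjusted p = 0.036). Txnrd1, the cytosolic thioredoxin reductase, was at 6.97, 6.89 and 7.01 in the Yap-on and at 7.22, 7.03 and 6.90 in the Yap-off libraries. These groups overlapped, and the 95% interval of the difference ran from -0.91 to 0.73 on 12 arrays and from -0.36 to 0.18 on the 6 arrays.

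Hmox1, heme oxygenase 1, opens the heme ring and releases iron, carbon monoxide and biliverdin. It was at 8.18, 7.88 and 8.09 log2 intensity in the Yap-on libraries and at 8.72, 7.74 and 7.74 in the Yap-off libraries. The groups overlapped, and the log2 difference of -0.01 had a 95% interval from -1.19 to 1.17 on 12 arrays and from -0.66 to 0.63 on the 6 arrays. Its sign turned with median centring (0.06), which leaves no direction to report.

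**Figure D2:**
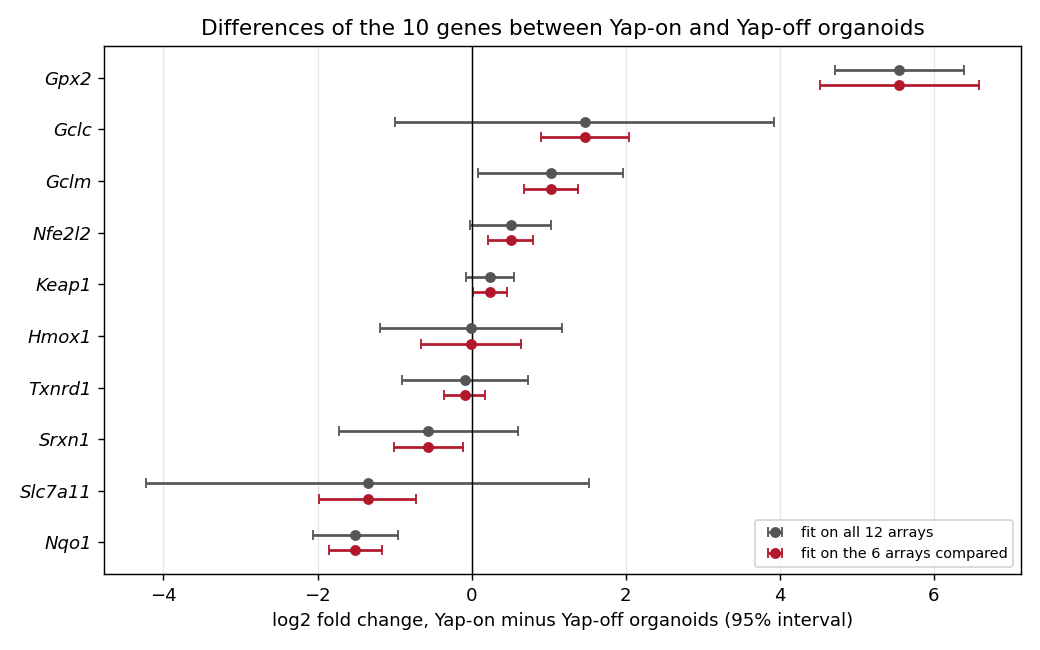
Log2 fold change of the 10 genes, Yap-on minus Yap-off organoids (3 libraries each), with 95% intervals from limma on all 12 arrays (grey) and on the 6 arrays compared (red). Gpx2 at 5.55, Nqo1 at -1.51 and Gclm at 1.03 lie clear of 0 in both fits, although Gclm was not called on 12 arrays. The intervals of Nfe2l2, Keap1, Gclc, Srxn1 and Slc7a11 include 0 in the 12-array fit only.

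Hmox1 was lower in both Yap groups than in wild-type organoids and hepatocytes. It averaged 8.05 ± 0.16 in Yap-on, 8.06 ± 0.57 in Yap-off and 10.51 ± 1.27 in wild-type organoids, and 12.04 ± 0.16 in hepatocytes (log2 intensity, SD, n = 3 each). The single values were 11.01, 9.06 and 11.45 in the wild-type organoid and 11.92, 12.23 and 11.98 in the hepatocyte libraries. The 6 Yap-on and Yap-off values lay below all 6 of these.

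Against hepatocytes Hmox1 fell by 3.99 in Yap-on organoids (SE 0.53, adjusted p = 0.0013, limma) and by 3.98 in Yap-off organoids (SE 0.53, adjusted p = 0.0068), about 16-fold in both. Each of these calls held in all 14 alternative fits, with adjusted p up to 0.0084 for Yap-on and 0.038 for Yap-off organoids. Against wild-type organoids it fell by 2.45 in Yap-on organoids (SE 0.53, adjusted p = 0.024) and by 2.44 in Yap-off organoids (SE 0.53, adjusted p = 0.044). These 2 calls ended on the 6 arrays compared (adjusted p = 0.13 and 0.23). The call for Yap-on organoids also ended without any 1 of the libraries labelled wild-type organoid 1 or 3 or Yap-on 1, 2 or 3 (adjusted p between 0.078 and 0.10). That for Yap-off organoids ended without any 1 of those labelled wild-type organoid 1 or 3 or Yap-off 2 or 3 (adjusted p between 0.13 and 0.16), and with renewed quantile normalization (0.057) or the replicate number as a block (0.076). Wild-type organoids differed from hepatocytes by -1.54, which did not pass (adjusted p = 0.465), although the groups did not overlap.

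Kupffer cells, the macrophages of the liver, are known for high Hmox1, so its values stand here beside those of the macrophage markers. In the libraries labelled hepatocyte 1 and 3, Hmox1 was at 11.92 and 11.98 while the macrophage list had a median of 3.76 and 4.03. In the library labelled hepatocyte 2, Hmox1 was at 12.23 and the macrophage median at 11.29. Among hepatocytes, only this 1 library had high macrophage markers, and it also stood apart in Xist. Within wild-type organoids Hmox1 ran along with the markers, at 11.01 and 11.45 where the macrophage median was 10.39 and 11.02, and at 9.06 where it was 3.42. The part of the macrophage transcripts in the differences from wild-type organoids and from hepatocytes was not tested. Without the libraries labelled wild-type organoid 2 and hepatocyte 2, Hmox1 differed from hepatocytes by -3.90 in Yap-on and -3.89 in Yap-off organoids. Xist was low in Yap-on and high in Yap-off organoids and in hepatocytes 1 and 3. The part of sex-linked expression in the differences of Hmox1 was not tested.

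**Figure D3:**
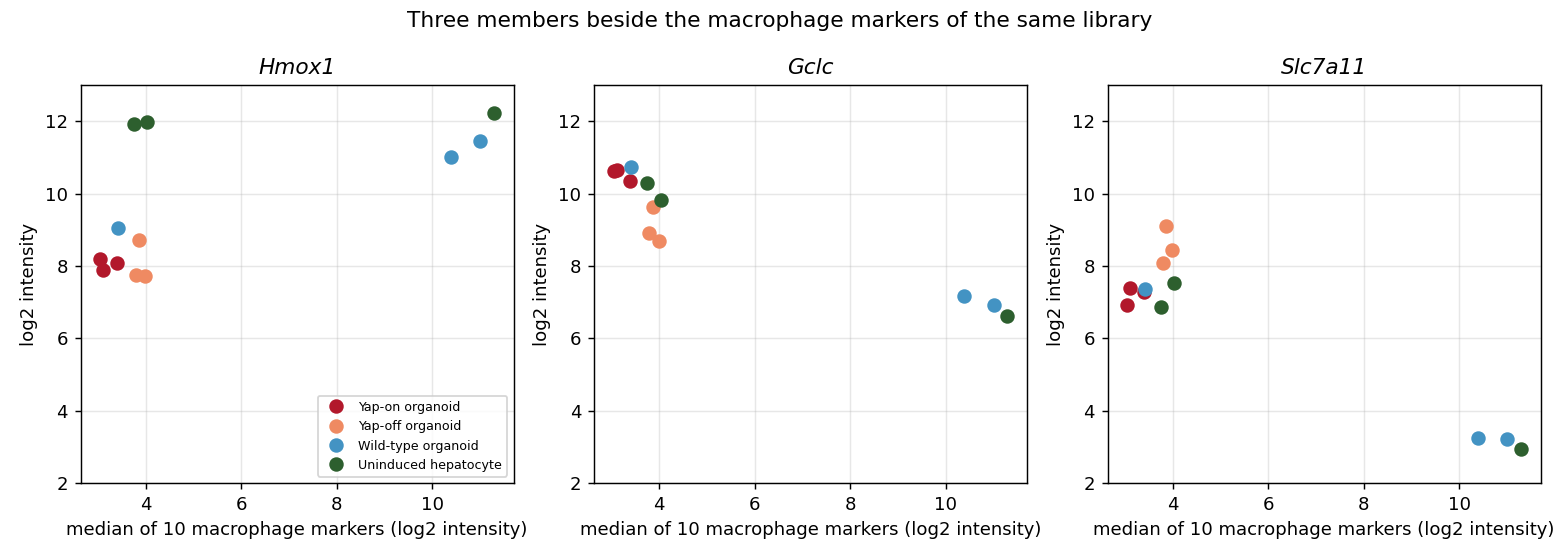
Log2 intensity of Hmox1, Gclc and Slc7a11 in each of the 12 libraries against the median log2 intensity of 10 macrophage markers in the same library, coloured by labelled group. Hmox1 was near 12 in all 3 hepatocyte libraries, where that median was 3.76, 11.29 and 4.03. Gclc and Slc7a11 were lowest in the 3 libraries with a median above 10.

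Gclc, Gclm, Txnrd1, Srxn1 and Slc7a11 followed the division within the wild-type organoid and hepatocyte labels in part or whole. Slc7a11 was at 3.24, 7.35 and 3.23 log2 intensity in wild-type organoid libraries 1, 2 and 3, against 6.86, 2.94 and 7.52 in those labelled hepatocyte 1, 2 and 3. The 3 low values, below the array medians, were in the libraries rich in macrophage markers. Gclc was at 7.16, 10.74 and 6.93 in the wild-type organoid and at 10.28, 6.61 and 9.82 in the hepatocyte libraries, the same division. For Srxn1 the values were 5.09, 7.27 and 5.09 in wild-type organoids, against 7.26, 6.46 and 7.15 in hepatocytes.

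Gclm and Txnrd1 divided the wild-type organoids but hardly the hepatocytes. Gclm was at 7.0, 8.95 and 7.43 in wild-type organoids, against 8.79, 8.19 and 8.82 in hepatocytes. Txnrd1 was at 5.83, 7.67 and 6.37 in wild-type organoids, against 7.33, 7.51 and 7.36 in hepatocytes. The labels therefore gave wide errors for these genes, and none of the 5 passed in any comparison with wild-type organoids or hepatocytes on 12 arrays.

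Gpx2 was low in every library outside the Yap-on group. It was at 3.46, 3.63 and 3.62 log2 intensity in wild-type organoids and at 3.91, 3.68 and 3.45 in hepatocytes, levels that 39.2% to 52.3% of the rows of these arrays did not reach. The Yap-on organoids exceeded wild-type organoids by 6.17 (SE 0.38, adjusted p = 4.8e-06, limma) and hepatocytes by 6.05 (SE 0.38, adjusted p = 5.5e-06). The differences of Yap-off organoids from wild-type organoids (0.61, SE 0.38, adjusted p = 0.39) and from hepatocytes (0.50, SE 0.38, adjusted p = 0.68) did not pass. These comparisons have libraries in common with one another. Both values of Gpx2 against these groups changed little without the libraries labelled wild-type organoid 2 and hepatocyte 2, at 6.19 and 6.05. Xist was low in both Yap-on and wild-type organoids and high in Yap-off organoids and hepatocytes 1 and 3. The part of sex-linked expression in the differences of Gpx2 was not tested.

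Nqo1 stood at 3.06, 3.87 and 3.18 log2 intensity in wild-type organoids and at 4.08, 3.34 and 3.78 in hepatocytes, above all Yap-on values of 2.67 to 2.82. The Yap-on organoids fell by 1.01 relative to hepatocytes (SE 0.25, adjusted p = 0.040, limma), a call kept in 6 of 14 alternative fits. It ended with renewed quantile normalization, median centring and the replicate block (adjusted p = 0.073, 0.077 and 0.092), and without any 1 of the libraries labelled hepatocyte 1 or 3 or Yap-on 1, 2 or 3 (0.10 to 0.143). The difference of -0.64 from wild-type organoids, which were alike in Xist, did not pass (adjusted p = 0.17). The part of sex-linked expression in the call against hepatocytes was not tested. Nfe2l2 and Keap1 passed in none of the comparisons with wild-type organoids or hepatocytes on 12 arrays.

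In counts, 2 of 10 members were called between Yap-on and wild-type organoids, against 5.47% of all genes, and 1 between Yap-off and wild-type organoids, against 2.61%. Between Yap-on organoids and hepatocytes 3 were called (6.19% of all genes), between Yap-off organoids and hepatocytes 1 (1.9%), and between wild-type organoids and hepatocytes none (0.0502%, by limma). Without overlap between groups were 5 members for Yap-on and 4 for Yap-off against wild-type organoids, beside 26% and 19.3% of all genes. Against hepatocytes there were 7 for Yap-on (39.6% of all genes), 3 for Yap-off (19.6%) and 1 for wild-type organoids (7.64%).

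Without the libraries labelled wild-type organoid 2 and hepatocyte 2 these counts were far higher where wild-type organoids took part. They were 8 for Yap-on and 7 for Yap-off against wild-type organoids and 7 for wild-type organoids against hepatocytes, beside 41%, 32.3% and 30.7% of all genes. Against hepatocytes 3 members were called for Yap-on (21.6% of all genes) and 3 for Yap-off organoids (14%). In these fits the wild-type organoids are represented only by the 2 libraries rich in macrophage transcripts, and Slc7a11 was higher by 3.96 in Yap-on and by 5.31 in Yap-off organoids (adjusted p = 4.4e-06 and 9.0e-07). Gclc in Yap-off organoids turned direction against hepatocytes, at -0.98 (adjusted p = 0.037) in place of 0.17.

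Calls among further NRF2 targets went in both directions as well, and 18 of the 24 measured were not called. Of 24 further targets measured of 26 listed, 4 were called higher and 2 lower in Yap-on against Yap-off organoids, beside 7.09% and 4.36% of all genes, with a median log2 difference of 0.11 (-0.08 over all genes). Akr1b8, an aldo-keto reductase that detoxifies aldehydes, was at 9.42, 9.51 and 9.62 log2 intensity in the Yap-on libraries, against 4.45, 4.36 and 3.92 in the Yap-off libraries. It rose by 5.28 (SE 0.80, adjusted p = 0.0023, limma), the rise nearest in size to that of Gpx2 on these lists. Cbr3, a carbonyl reductase, rose by 2.24 (SE 0.58, adjusted p = 0.034). The glutathione transferase Gstm1 fell by 2.68 (SE 0.50, adjusted p = 0.0073), and Me1, malic enzyme and a source of NADPH, differed by 2.63 without passing (SE 1.30, adjusted p = 0.23).

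The other called genes of that list, named after their values were seen, were Tkt and Taldo1, higher by 1.60 and 0.95 (adjusted p = 0.029 and 0.041), and Aox1, lower at -1.62 (adjusted p = 0.044). Tkt and Taldo1 encode the transketolase and transaldolase of the pentose phosphate pathway, and Aox1 an aldehyde oxidase. Akr1b8 and Gstm1 belong to families of similar genes whose transcripts the array may not separate fully. On the 6 arrays 11 of the 24 were called higher and 7 lower, beside 19.1% and 12% of all genes. Without the 2 doubtful libraries the counts were 9 and 6, beside 18.9% and 10.8%.

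Of 13 measured regulators and partners of NRF2, 1 was called higher and 1 lower, close to the shares of all genes (7.09% and 4.36%). The fit on the 6 arrays called 3 higher and 1 lower, beside 19.1% and 12% of all genes. Bach1, a repressor that competes with NRF2 for small MAF proteins, was at 5.46, 5.94 and 5.50 log2 intensity in the Yap-on and at 6.44, 6.64 and 7.04 in the Yap-off libraries and fell by 1.07 (SE 0.27, adjusted p = 0.028, limma). Gsk3b, a kinase that marks NRF2 for a second route of destruction, rose by 0.80 (SE 0.17, adjusted p = 0.013). Cul3, the ligase scaffold, and Nfe2l1, a relative of NRF2, each differed by 0.64 without passing on 12 arrays (adjusted p = 0.14 and 0.055). Both passed with limma on the 6 arrays (adjusted p = 0.044 and 0.0063).

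In the glutathione list none of 14 measured genes was called higher on 12 arrays and 3 were lower, beside 7.09% and 4.36% of all genes. The fit on the 6 arrays called 3 higher and 5 lower, beside 19.1% and 12% of all genes. Gpx3, the secreted plasma glutathione peroxidase, was at 4.79, 4.78 and 4.43 log2 intensity in the Yap-on libraries, against 10.01, 9.33 and 9.40 in the Yap-off libraries. It fell by 4.91 (SE 0.59, adjusted p = 0.00056, limma), so that Gpx2 and Gpx3 differed between these organoids by similar amounts in opposite directions. The other peroxidases of the family on the list, Gpx1, Gpx4, Gpx7 and Gpx8, did not pass on 12 arrays, with differences of 0.40, -0.14, -0.90 and -0.64. Of these, limma on the 6 arrays called Gpx1 higher and Gpx8 lower (adjusted p = 0.028 and 0.047). Mgst1, a microsomal glutathione transferase, fell by 1.87 (adjusted p = 0.00057). The third gene called lower on 12 arrays was Oplah, at -1.22 (adjusted p = 0.028), named after its value was seen. Oplah is the 5-oxoprolinase that returns glutamate from glutathione breakdown. Gsto1 and Mgst3 differed by 1.72 and 1.38 without passing on 12 arrays (adjusted p = 0.15 and 0.34). Both passed with limma on the 6 arrays (adjusted p = 0.00027 and 0.0066). The falls of Gpx3 and Mgst1 ran along with those of the hepatocyte markers, whose median log2 difference was -6.48 and whose part was not tested.

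**Figure D4:**
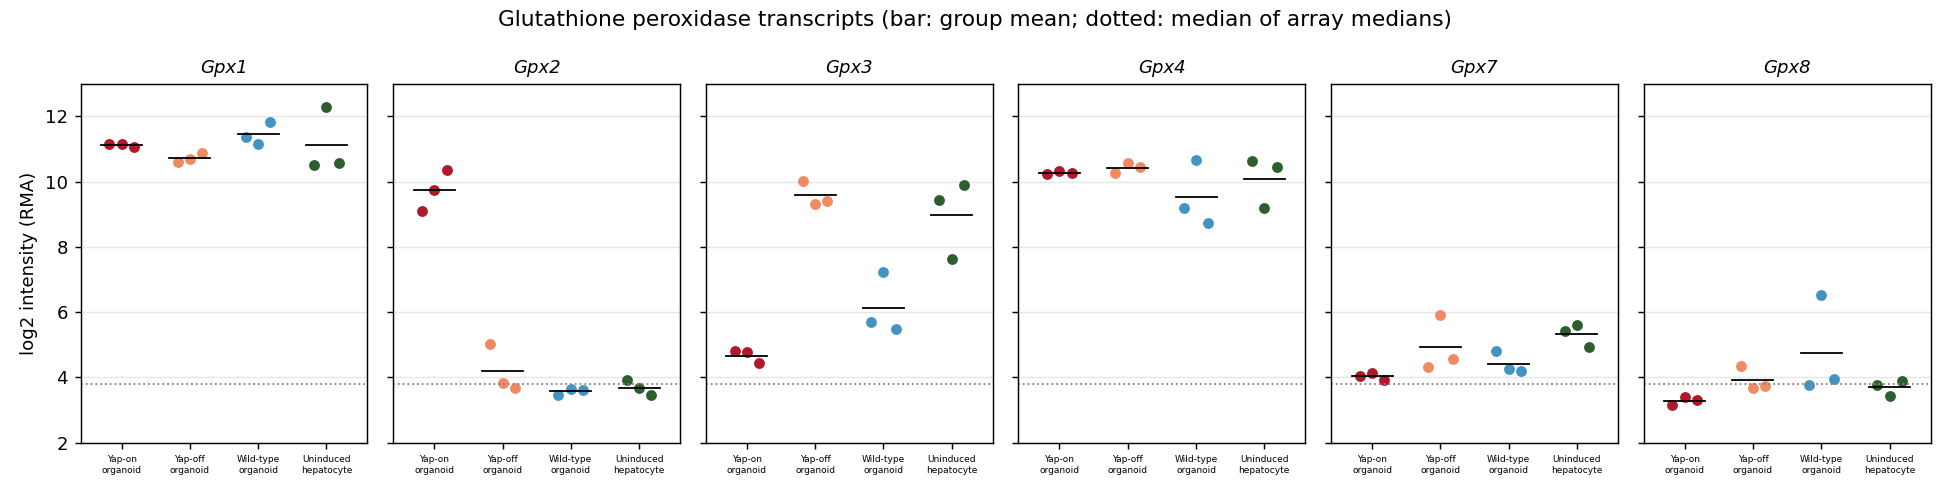
Log2 intensity of 6 glutathione peroxidase genes in the 12 libraries, with group means as bars and the median of the array medians as a dotted line. Gpx2 was high in the Yap-on libraries alone, and Gpx3 stood between 4.43 and 4.79 there against 9.33 to 10.01 in the Yap-off libraries, while Gpx1 and Gpx4 were at least 8.74 in every library.

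Of 11 measured thioredoxin, peroxiredoxin, dismutase and catalase genes 1 was called lower and none higher, beside 4.36% and 7.09% of all genes. It was Prdx4, the peroxiredoxin of the endoplasmic reticulum, which fell by 1.18 (SE 0.21, adjusted p = 0.0056, limma). Txnip, an inhibitor of thioredoxin, differed by 2.43 just outside the threshold on 12 arrays (SE 0.72, adjusted p = 0.059). Sod3 and catalase (Cat) differed by -1.38 and -1.06 without passing there (adjusted p = 0.27 and 0.18). Txnip, Sod3 and Cat all passed with limma on the 6 arrays (adjusted p = 0.00081, 0.0046 and 0.00032). On the 6 arrays 1 was called higher and 5 lower, beside 19.1% and 12% of all genes.

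Around Hmox1, 3 of 8 heme genes were called lower and none higher on 12 arrays, beside 4.36% and 7.09% of all genes. The fit on the 6 arrays called 4 lower and 1 higher, beside 12% and 19.1% of all genes. Hpx, the plasma carrier of free heme, was at 3.90, 3.88 and 3.65 log2 intensity in the Yap-on libraries, against 11.19, 11.72 and 11.72 in the Yap-off libraries, a fall by 7.74 (SE 0.61, adjusted p = 3.1e-05, limma). Slc48a1, a heme transporter, fell by 1.37 (adjusted p = 0.014) and Alas1, which starts heme synthesis in liver, by 1.20 (adjusted p = 0.0031). Blvra, which reduces biliverdin, differed by 1.26 without passing on 12 arrays (adjusted p = 0.16) and passed with limma on the 6 arrays (adjusted p = 0.00050). Hpx is made by hepatocytes, and its fall ran along with that of the hepatocyte markers, whose part was not tested.

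Slc7a11 is also a target of ATF4, the transcription factor of the amino acid stress response. Of 10 genes on that list 2 were called lower and none higher, beside 4.36% and 7.09% of all genes. They were Cth and Cbs, the transsulfuration enzymes that make cysteine from methionine, which fell by 4.01 and 3.90 (SE 0.67 and 0.57, adjusted p = 0.0041 and 0.0019, limma). The fit on the 6 arrays called 3 genes of the list lower and 2 higher, beside 12% and 19.1% of all genes. Cth was at 4.73, 5.19 and 4.13 log2 intensity in the Yap-on libraries, against 8.23, 9.07 and 8.78 in the Yap-off libraries. Phgdh, of serine synthesis, and the stress factor Atf3 differed by 1.35 and 1.30 without passing on 12 arrays (adjusted p = 0.52 and 0.16). Atf4 itself differed by 0.04 (adjusted p = 0.97). With limma on the 6 arrays Phgdh and Atf3 passed (adjusted p = 0.0084 and 0.014) and Atf4 did not (0.80). Cth and Cbs are abundant liver enzymes, and their falls ran along with those of the hepatocyte markers (median -6.48), whose part was not tested.

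**Figure D5:**
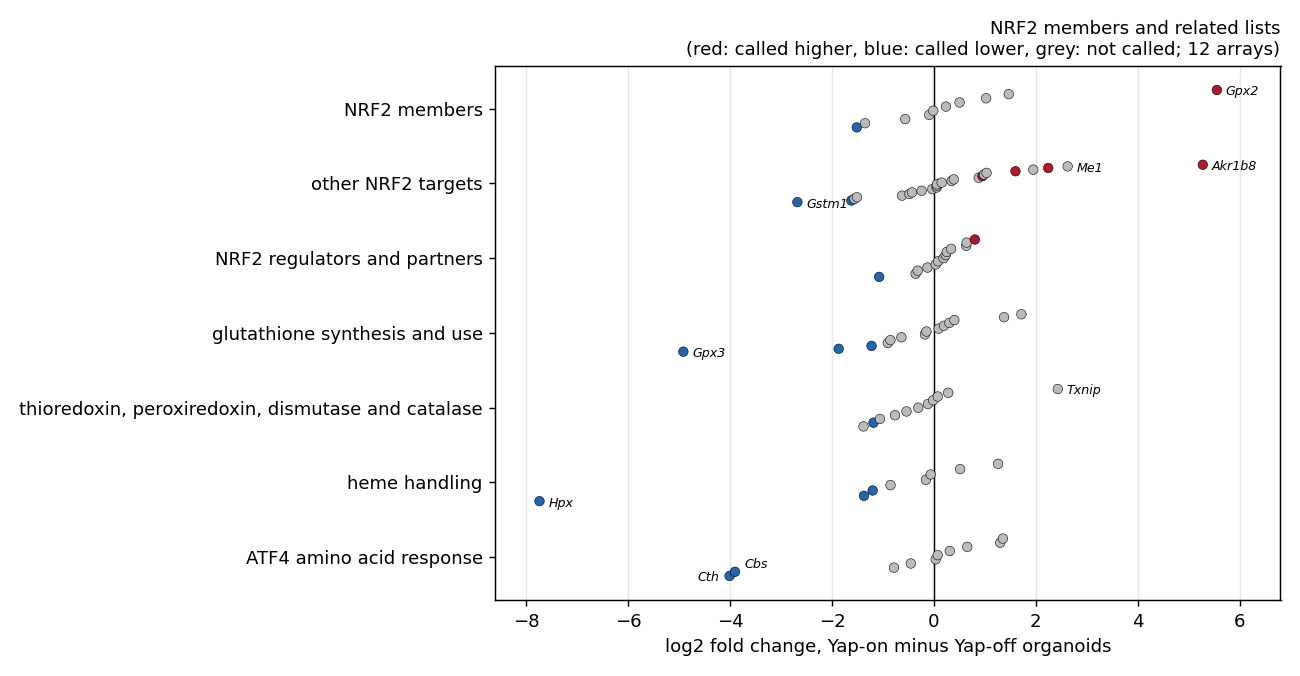
Log2 fold change, Yap-on minus Yap-off organoids, of the 10 NRF2 members and of 6 related gene lists. Each point is 1 gene, coloured by its call in the fit on 12 arrays (red higher, blue lower, grey not called), and genes past 2.4 in either direction are named. Gpx2 (5.55) and Akr1b8 (5.28) lie farthest to the right, and Hpx (-7.74), Gpx3 (-4.91), Cth (-4.01) and Cbs (-3.90) farthest to the left.

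The genes most like Gpx2 over the 12 arrays, by the root mean square difference of mean-centred log2 values, were Degs2, Itgb6 and Phgr1 (0.40, 0.51 and 0.52). Degs2 is a sphingolipid hydroxylase and Itgb6 an integrin chain of epithelia. Degs2 stood at 9.08, 9.01 and 9.19 in the Yap-on libraries and between 3.12 and 3.81 elsewhere, and Itgb6 and Phgr1 were likewise high in the Yap-on libraries alone. The genes most like Hmox1 were Gng2, Gab2 and Tanc2, at larger differences of 0.56, 0.65 and 0.77. Gng2 was at 3.78 to 3.99 in Yap-on and 4.02 to 4.67 in Yap-off organoids, at 6.68, 4.11 and 7.0 in wild-type organoids, and at 7.09, 8.0 and 7.16 in hepatocytes. It thus shared with Hmox1 the high values in all 3 hepatocyte libraries and the low one in the library labelled wild-type organoid 2.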

How the data were processed

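RNA was measured on 12 arrays. The deposited values are intensities on a linear scale that the authors made with RMA, per the submitters' processing notes; version, software and genome build were not given in the sources used here. Here log2 of the deposited intensities was taken. Of 34760 rows, 11799 absent from the platform's gene table and 1321 naming several genes were left out, and for genes with several rows the one with the highest mean was used (19937 genes, no filter). The precision is limited by the number of arrays; no 2 arrays were identical. Groups came from titles. Group means were fitted over all 12 arrays in limma 3.58.1 (R 4.3.3; lmFit, eBayes) with Benjamini-Hochberg adjustment over all genes, called under 0.05; every adjusted p is from this fit unless another is named, and SEs are limma's. The fit was tested on simulated data.

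The members and lists were chosen with earlier results of these data known. Named were all 10 members, up to 4 genes of each list with the largest change between Yap-on and Yap-off organoids, and the 3 genes most like Gpx2 and Hmox1. Of the lists reported here, Prdx6, G6pdx, Ggt1, Prdx5 and Spp1 had no row of their own. Replicate numbers did not pair Yap-on with Yap-off libraries (correlations of deviations between -0.06 and 0.07), so the block is an alternative. Others were renewed quantile normalization, median centring, the mean of a gene's rows, leaving out the lowest 30% of genes and a trended robust eBayes. Further fits used the 6 arrays compared, left out each library of the 2 groups compared, or left out hepatocyte 2 with wild-type organoid 2. Motifs were sought on both strands of RefSeq windows (GRCm38.p6). Figures used matplotlib 3.10.9.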

Additional observations from a re-analysis of the deposited data

How the results depend on the processing

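The calls of Gpx2 and Nqo1 between Yap-on and Yap-off organoids held in all 14 alternative fits, as did those of Hmox1 in Yap-on and Yap-off organoids against hepatocytes and of Gpx2 in Yap-on against wild-type organoids and hepatocytes. Values near the array background, such as Nqo1 in Yap-on and Yap-off organoids and Gpx2 outside Yap-on organoids, limit the sizes of folds.

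Between Yap-on and Yap-off organoids, 2 members (1 higher, 1 lower) and 2283 of all genes were called. On the 6 arrays these were 6 (4 and 2) and 6212, and without the libraries labelled wild-type organoid 2 and hepatocyte 2, a choice made with the data known, 7 (4 and 3) and 5914; these fits leave out libraries that disagree within a label. Leaving out 1 Yap-on or Yap-off library at a time (6 fits) gave 2 members each time (1 higher, 1 lower). All genes called were then 1171 to 2169, with 1171 without Yap-on 1. Single wild-type organoid or hepatocyte libraries, which enter the spread of this fit, were not left out here.

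Members called between Yap-on and wild-type organoids were 2, against 8 without the 2 doubtful libraries, 1 on the 6 arrays, and 1 to 8 with 1 library left out. Between Yap-off and wild-type organoids they were 1, against 7 without the doubtful libraries, 0 on the 6 arrays, 0 with renewed quantile normalization, and 0 to 6 with 1 library left out. In limma's fits with 0 members, Hmox1 missed the threshold as given above. Between Yap-on organoids and hepatocytes they were 3 (2 to 3 with 1 library left out), between Yap-off organoids and hepatocytes 1 (3 without the doubtful libraries, 1 to 1 with 1 left out), and between wild-type organoids and hepatocytes 0 (7 and 0 to 3). The highest counts, 8, 6 and 3, came without the library labelled wild-type organoid 2. The cause was not tested.

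With the replicate number as a block (replicate block), the members called between Yap-on and Yap-off organoids stayed at 2 and those between Yap-off and wild-type organoids were 0. The numbers mark no stated pairing.

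Differences that turned sign were uncalled, except Gclc in Yap-off organoids against hepatocytes, which was -0.98 and called without the doubtful libraries (-0.98 to 0.85 with 1 library left out). With median centring Hmox1 in Yap-on against Yap-off organoids was 0.062 (-0.18 to 0.32 with 1 left out). In Yap-off against wild-type organoids Keap1 was 0.058 with renewed quantiles, 0.030 with centring and 0.016 without the doubtful libraries (-0.11 to 0.084 with 1 left out), and Nfe2l2 was 0.24 without the doubtful libraries (-0.28 to 0.24). In Yap-on organoids against hepatocytes Keap1 was -0.13 with renewed quantiles and -0.033 without the doubtful libraries (-0.033 to 0.18), and Srxn1 ran from -0.25 to 0.15 with 1 library left out. Txnrd1 in Yap-on against wild-type organoids ran from -0.060 to 0.86. In wild-type organoids against hepatocytes Nfe2l2 ran from -0.47 to 0.049, Gpx2 from -0.23 to 0.0023 and Gclc from -1.86 to 0.063.

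The share of calls that were higher was 54.4% in Yap-off against wild-type organoids, and 66.5% with renewed quantiles. In wild-type organoids against hepatocytes it was 50% of 10 calls, and 35.7% with median centring, which moved the median of all genes there to -0.13, against -0.03.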
